A study of Mus musculus with 3 samples.

Results

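The later step of hindlimb tendon development was described here as 1 comparison, ScxGFP-positive cells of E15.5 against those of E13.5. Of 22072 gene symbols listed, 21856 had an estimate of status OK in both libraries and entered the comparison. A total of 11421 of these were listed at 1 FPKM or more in either library and are called described genes, since a gene under 1 FPKM in both could not pass the 2-fold threshold. FPKM is a level per length of transcript, counted in fragments per kilobase and scaled to the mapped total. The change of a gene is the difference of log2(FPKM + 1), E15.5 minus E13.5, which understates the change of low genes.

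The study sorted GFP-positive cells from mouse hindlimbs at E11.5, E13.5 and E15.5 and sequenced their RNA, with 1 library for each embryonic day. All 3 groups carry the ScxGFP reporter on a mixed strain background and had no treatment named in the labels. The E11.5 library came from 18 pooled hindlimbs, the E13.5 library from 12 and the E15.5 library from 11, so the spread between embryos was not measured. Each value compares 2 libraries, no replicate checks it, and no test was made. The E11.5 level is printed first where 3 values are given, and the step before E13.5 shares the E13.5 library with the one described here.

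Scleraxis, the product of Scx, is a basic helix-loop-helix protein that marks progenitors of tendons and ligaments. The reporter labels cells in which Scx is or was recently active. Tendon progenitors first condense between muscle and skeleton and then differentiate into tenocytes, which secrete a collagen-rich matrix. Tendon growth is known to involve TGF-beta and FGF signals and mechanical load from muscle. In sorted bulk RNA, fewer cells of a type and less RNA per cell cannot be told apart.

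The label was checked against 10 tenocyte markers, all of which were described. Scx itself, the gene behind the sort, stood at 375, 410 and 213 FPKM at E11.5, E13.5 and E15.5 (mm9, chromosome 15, 76287868 to 76289898). It was the most abundant of the 10 markers at E11.5 and E13.5. Tenomodulin, a membrane protein of tenocytes encoded by Tnmd, stood at 0, 7.57 and 56.8 FPKM. All 10 markers were at 1 FPKM or more in both libraries, and 7 of them were at least 2-fold higher at E15.5.

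Markers of other cell types were present too, and several moved at the same step. The summed level of 18 skeletal muscle markers was 14.3, 66.5 and 228 FPKM in stage order, of which the cardiac actin gene Actc1 made 164 at E15.5. The 13 erythroid markers summed to 11.4, 21.4 and 88.6 FPKM, with 67.4 from the beta-globin gene Beta-s at E15.5, while the erythroid factor Gata1 was listed at 0 in all 3 libraries. The 13 endothelial markers summed to 2.21, 3.29 and 10.2 FPKM. Markers of dermal and loose connective fibroblasts went from 438 to 737 FPKM at the later step, of which Dlk1 made 44.3 and 245. Cartilage markers went from 377 to 559 FPKM, pericyte and smooth muscle markers from 44.01 to 73.9, and epidermal markers from 8.85 to 16.6. Hypertrophic cartilage and bone markers stood at 30.4 and 30.3 FPKM and adipocyte markers at 81.7 and 78.1. Of 17 macrophage and leukocyte markers none reached 1 FPKM at E13.5 or E15.5, and C1qa was listed at 0 in both. The part of these cell types in the changes below was not tested.

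At E15.5, 447 of the 11421 described genes were at least 2-fold higher, which is 3.91%, and 92 were at least 2-fold lower, which is 0.806%. Genes past the threshold were thus 82.9% higher ones. A 4-fold difference was passed by 64 genes upward and 10 downward. Of all described genes 55.9% were above their E13.5 level, the share beside which such counts of list members below are to be read. The median change was 0.04 and the middle 50% lay between -0.17 and 0.29. The summed FPKM was 155108 at E13.5 and 178674 at E15.5, a ratio of 1.15. With both libraries rescaled to equal sums, which moved the median of all genes to -0.13, 334 genes were higher and 158 lower, and the share of higher ones was 67.9%. All 92 lower genes and 334 of the 447 higher ones remained past the threshold on equal sums. List medians below are therefore given beside the median of 0.04, and a list is said to flip where its median changed sign on equal sums.

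Short transcripts made a large part of the lower genes. Of the 92, 38 had only transcripts under 300 bases, and 28 of those were listed at 0 at E15.5. An example is the small nucleolar RNA gene Snord37, listed at 27.4 FPKM at E13.5 and at 0 at E15.5. Among 11274 described genes with a transcript of 300 bases or more, 54 were lower (0.479%) and 422 higher. None of the lower genes named below, apart from small nucleolar RNAs, is short in this sense.

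**Figure D1:**
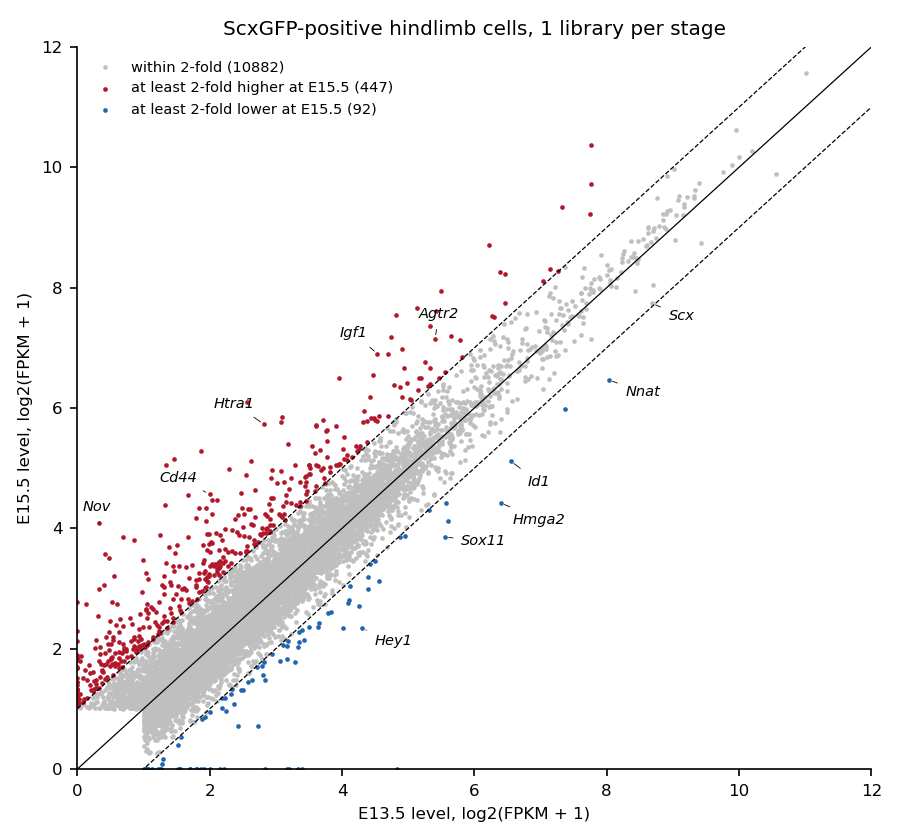
Level of each described gene at E13.5 (horizontal axis) and E15.5 (vertical axis), both as log2(FPKM + 1), 1 point per gene and 1 library per stage. The solid line marks equal levels and the dashed lines 2-fold differences. The 447 higher genes (red) reach from low to high levels, while the 92 lower genes (blue) include a row of short transcripts listed at 0 at E15.5.

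The gene groups of the step differed in how many members moved. The lists were chosen with earlier results of these data known, so the shares below describe the lists and test nothing. Of 271 described genes on the lists of secreted factors and matrix, 77 were higher and none lower, 28.4% against 3.91% of all described genes. Genes of the secretory machinery were higher in 18 of 148 (12.2%) and lower in none. Receptors and adhesion molecules had 19 higher (9.05%) and 2 lower of 210. Regulators of transcription moved in both directions, with 13 higher and 15 lower of 201, or 7.46% lower against 0.806% of all. Metabolic genes were higher in 17 of 436, which is 3.90% and near the background share. Class medians were 0.56 for secreted factors, 0.51 for the secretory machinery, 0.30 for receptors, 0.12 for metabolism and 0.00 for regulators. On equal sums they were 0.41, 0.32, 0.09, -0.05 and -0.18 in the same order, so the medians of metabolism and of regulators flipped. Counts there were 65 higher and 2 lower for secreted factors, 12 and 0 for the secretory machinery and 14 and 6 for receptors. For metabolism they were 12 and 2, and for regulators 9 and 24, or 11.8% lower against 1.38% of all. Hey1 and Heyl stand on lists of both regulators and receptors and count under each.

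The net gain of 23566 in summed FPKM was spread over many genes. The secreted lists held 23.3% of it and went from 3.33% to 5.96% of all FPKM, whereas the metabolic lists held 5.56% of the sum in both libraries. The type I collagen gene Col1a1 alone made 4.70% of the gain, going from 215 to 1322 FPKM. The imprinted growth genes together made 11.3% of it. Ribosomal proteins stood at 9.07% of the sum in each library. Lars2, a mitochondrial leucyl-tRNA synthetase gene, made 4.11% of the gain, listed at 2072 and 3040 FPKM. Its listed level at E15.5 was above those of Igf2 (1566 FPKM) and Col1a1. Whether all reads listed under Lars2 came from its mRNA was not tested. The largest loss was that of Mtrnr2l, listed at 1515 and 945 FPKM, followed by the nuclear long noncoding RNA Malat1 at 685 and 427, Scx, and Nnat.

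Among regulators, the nuclear factor I family of DNA-binding proteins was higher in all 4 members, 2 of them past 2-fold (median 1.12). Nfix stood at 2.38, 35.03 and 89.2 FPKM in stage order (mm9, chromosome 8, 87231498 to 87324239). Its E15.5 level was 2.55 times that at E13.5, with an approximate 95% counting interval of 2.44 to 2.66. Such intervals rest on a depth estimated from the coverage and cover counting error only. Nfic went through 3.27, 11.9 and 30.5 FPKM, and Nfia and Nfib, at 23.0 and 40.2 and at 27.1 and 53.5 FPKM at the later step, did not pass it. The family was thus low at E11.5 and highest at E15.5 in every member.

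Receptors that act as transcription factors showed 2 higher members of 20 and none lower (median 0.22), against none higher, 1 lower and a median of 0.03 on equal sums. Nr3c1, the glucocorticoid receptor, stood at 0.334, 2.20 and 6.11 FPKM. Nr3c2, the mineralocorticoid receptor, stood at 0.194, 0.748 and 2.66 FPKM. Both had changes of 1.15 and 1.07 on the log2 scale, and both fell just under 2-fold on equal sums. Nr2f2, an orphan receptor of mesenchyme and veins, went the other way, from 11.8 to 5.59 FPKM, and was the lower one on equal sums.

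**Figure D2:**
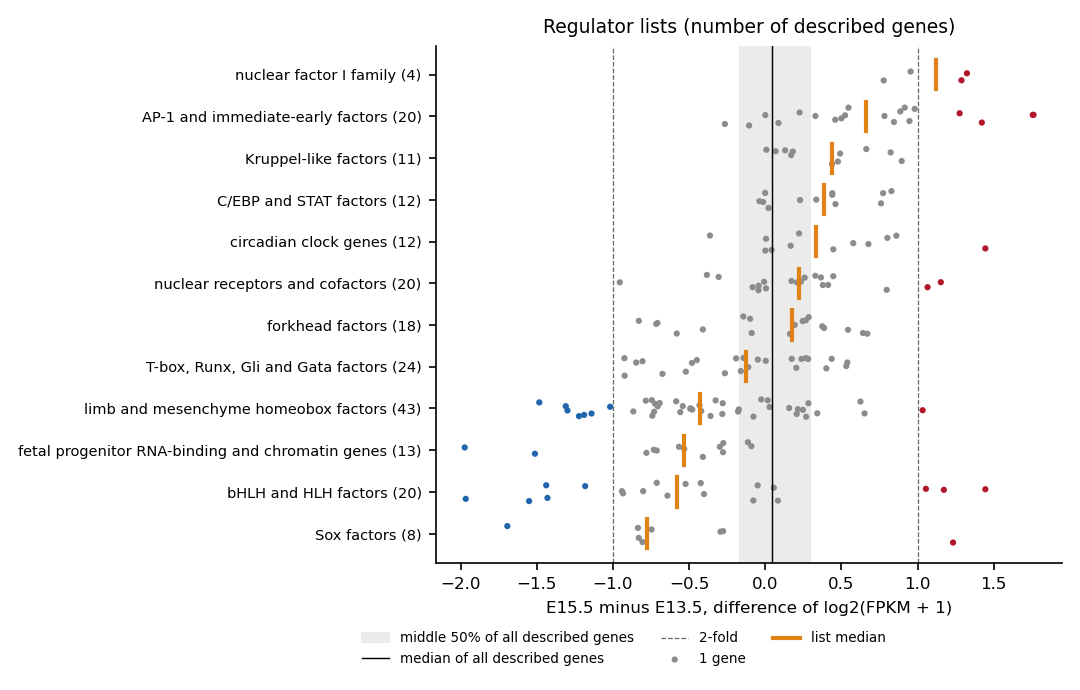
Change of each described gene on 12 regulator lists, as the difference of log2(FPKM + 1) between E15.5 and E13.5. Each point is 1 gene, red or blue when past 2-fold, the orange bars are list medians, and the grey band is the middle 50% of all described genes. Nuclear factor I and immediate-early factors lie to the right of the band, and Sox, helix-loop-helix and progenitor genes to its left.

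Helix-loop-helix factors, the family of Scx, were lower as a list, with 15 of 20 members below their E13.5 level, 5 at least 2-fold lower and 3 higher (median -0.58), or 8 and 2 on equal sums. Scx was among the 3 that passed 2-fold on equal sums only. The Id proteins bind bHLH factors and keep them from DNA. Id1 stood at 66.0, 92.6 and 33.8 FPKM, Id2 at 8.67, 22.6 and 7.73, and Id3 at 49.4, 83.1 and 47.3. Each of the 3 was highest at E13.5, and Id1 was 2.74 times lower at E15.5 (counting interval 2.55 to 2.95). Hey1, a Notch target and repressor, had the same order with 11.4, 18.7 and 4.05 FPKM. Hand2, a patterning factor of the posterior limb bud, was lower at each stage, at 30.7, 18.1 and 5.54 FPKM, and Twist2, a factor of dermal and other mesenchyme, stood at 9.24, 12.8 and 5.07. In the opposite direction went Bhlhe40, a clock-linked repressor, at 0.886, 4.42 and 13.8 FPKM. Msc, a factor of muscle precursors, stood at 0.657, 1.89 and 5.51 FPKM, and Heyl at 0.195, 0.929 and 3.01. Heyl fell below 2-fold on equal sums, and Msc is a gene of muscle cells, whose summed markers were higher at the same step.

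Limb homeobox genes and progenitor genes were lower as well. Of 43 homeobox genes 31 were below their E13.5 level, with 7 at least 2-fold lower and 1 higher, against 8 and 0 on equal sums. The higher one was Meis3, a TALE factor (1.98 to 5.09 FPKM, 1.03 on the log2 scale and under 2-fold on equal sums). Irx1, an Iroquois factor, was lower beside the distal Hox genes, at 0.0698, 4.69 and 1.495 FPKM. All 13 described members of the fetal progenitor list were below their E13.5 level (median -0.53). Hmga2, a chromatin architecture protein of fetal cells, stood at 127, 83.3 and 20.5 FPKM (mm9, chromosome 10, 119798331 to 119913991) and was 4.07 times lower at E15.5 (counting interval 3.91 to 4.24). Its relative Hmga1 was at 185, 49.0 and 39.7 FPKM, so most of its difference lay before E13.5. Sall1, a zinc finger factor of limb buds, stood at 18.6, 8.76 and 2.42 FPKM. The signalling subunit gene Pik3r3 was lower after a level start, at 11.3, 11.4 and 4.11.

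The Sox list showed 7 of 8 members below E13.5 (median -0.78). Sox11, a factor of immature mesenchyme and neurons, stood at 58.1, 45.9 and 13.498 FPKM, while its relative Sox4 was at 27.6 and 22.6 at the later step. Sox9, shared by tendon and cartilage progenitors, went from 41.0 to 22.5 FPKM and passed 2-fold on equal sums only. Sox8 was the exception, at 2.28, 3.35 and 9.24 FPKM and 2.75 times higher at E15.5 (counting interval 2.42 to 3.14). Forkhead factors had no member past 2-fold, and their median of 0.18 flipped on equal sums.

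Further regulators were chosen after their values were seen, because they stood on no list. Prdm16, a zinc finger regulator of cell fate, stood at 12.2, 6.15 and 1.80 FPKM, and its relative Mecom at 62.0, 21.7 and 10.02. Mab21l2, a gene of limb bud and eye patterning, stood at 78.1, 46.4 and 20.5 FPKM. Mir17hg, the host transcript of a microRNA cluster of proliferating cells, went from 1.87 to 0.317 FPKM. Each of these 4 was lower at every later stage. Klf14, an imprinted Kruppel-like gene, went from 3.09 to 17.8 FPKM, and the ETS factor gene Elf4 from 3.08 to 12.4. Vgll2, a cofactor of TEAD proteins known in muscle, stood at 1.09, 3.56 and 12.96 FPKM, in step with the muscle markers. Klf14 stood apart from the 11 listed and described Kruppel-like factors, all of which were above their E13.5 level without any reaching 2-fold (median 0.44).

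Immediate-early genes, which cells transcribe within minutes of a stimulus, were higher in 4 of 20 described members and above E13.5 in 18 (median 0.66). The higher ones were Egr1, the AP-1 genes Junb and Fosl2, and Zfp36, which encodes a protein that binds AU-rich mRNA and speeds its decay. Zfp36 stood at 2.46, 8.77 and 32.1 FPKM (mm9, chromosome 7, 29161803 to 29164247), a ratio of 3.66 between the later stages with a counting interval of 3.31 to 4.06. Junb stood at 1.998, 3.72 and 11.7 FPKM, and Fosl2 at 0.129, 1.63 and 5.37. Jun, at 78.9 and 92.4 FPKM, and Fos, at 32.4 and 63.4, were already higher in level at E13.5 and did not pass 2-fold. Heat shock genes, chosen after their values were seen, were higher at the same step. Hspa1a stood at 19.2, 11.8 and 38.7 FPKM in stage order. Hspa1b, a near-identical copy that may share its reads, stood at 15.51, 10.3 and 32.3. Both were thus lowest at E13.5. The small heat shock genes were higher at each stage, Hspb1 at 1.22, 2.86 and 16.4 FPKM and Cryab at 0.0241, 0.540 and 3.86. All 7 described members of the heat shock group were above E13.5 and 4 were past 2-fold. The part of cell sorting in the immediate-early and heat shock levels was not tested.

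Several immediate-early promoters are known to bind serum response factor at a CArG box, so the promoter letters of this list are shown, a search chosen after the values were seen. The windows run from 250 bases before to 50 after each start and come from RefSeq on build GRCm38.p6, a build other than that of the expression tables. Any run that matched the CArG consensus was counted, and since the consensus is its own reverse complement 1 pass covers both strands. Of 32851 promoters 535 held it (1.63%), against 135 of the 10344 promoters of described genes (1.31%). The share was 8 of 393 for the higher genes (2.04%) and 1 of 55 for the lower genes (1.82%). The table matched 20 of the 25 listed immediate-early genes, with 26 promoters. In 7 of these, which belong to 4 genes, the box was found, and 4 of the 7 are starts of Egr2. Listed genes without a window were not searched, and a box outside a window could not be found. The 60 bases around it are given 5′ to 3′ on the strand of the gene, with the box in capitals.
Zfp36: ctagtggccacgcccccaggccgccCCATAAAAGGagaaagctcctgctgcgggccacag
Egr2: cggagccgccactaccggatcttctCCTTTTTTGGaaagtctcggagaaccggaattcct
Srf: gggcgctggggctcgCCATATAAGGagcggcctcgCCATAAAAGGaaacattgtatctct
Dusp5: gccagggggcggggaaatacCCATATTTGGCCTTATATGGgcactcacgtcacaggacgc

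The Zfp36 stretch lies at chr7:28379252-28379311 on the minus strand, with the box 58 bases before the start. The Egr2 stretch is at chr10:67537469-67537528 on the plus strand, that of Srf at chr17:46556200-46556259 on the minus strand, and that of Dusp5 at chr19:53529043-53529102 on the plus strand. Srf and Dusp5 hold 2 boxes each, which in Dusp5 abut. The 4 genes with the box differed in their levels. Zfp36 was past 2-fold, Egr2 stood at 2.42 and 5.15 FPKM at the later step, Srf at 8.09 and 7.45, and Dusp5, a phosphatase gene, at 0.507 and 0.529. A match is a description of letters and not of binding.

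Receptors at the cell surface included several of neurotrophins and related cytokines. Ngfr, the low-affinity neurotrophin receptor, stood at 1.62, 7.06 and 26.0 FPKM (mm9, chromosome 11, 95430140 to 95449012), 3.69 times higher at E15.5 than at E13.5 (counting interval 3.40 to 4.003). Ntrk2, which binds BDNF, stood at 0.228, 2.90 and 11.53 FPKM, and Ntrk3, which binds neurotrophin-3, at 0.0341, 0.606 and 4.18. Cntfr, the ciliary neurotrophic factor receptor, was flat before and then higher, at 4.04, 4.21 and 16.8 FPKM. Its signalling partner Il6st, also called gp130, stood at 9.26, 29.2 and 49.4 FPKM and did not pass 2-fold. Schwann and neural markers, which could carry such receptors, summed to 11.1 and 13.9 FPKM at the 2 later stages, with Sox10 under 1 FPKM. Their part in the receptor levels was not tested.

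Receptor tyrosine kinases moved little as a list, which also holds the IGF2 clearance receptor Igf2r. Of 28 described members 4 were higher, Ntrk2 and Ntrk3 among them, and none lower, and the list median of 0.13 flipped on equal sums. Fgfr4, an FGF receptor of myoblasts, stood at 0.923, 1.67 and 7.30 FPKM. Tek, the angiopoietin receptor of endothelium and itself on the list of endothelial markers, stood at 0.151, 0.686 and 2.63, under 2-fold on equal sums. Pdgfra, the most abundant of the mesenchymal kinases named here, stood at 54.8 and 51.3 FPKM, and Ddr2, a collagen-binding kinase, at 25.02 and 26.7. Among TGF-beta superfamily receptors 1 of 13 passed 2-fold, the endothelial coreceptor Eng at 0.913 and 3.08 FPKM, which fell below it on equal sums. The median of that list flipped too, from 0.07 to -0.17.

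G protein-coupled receptors and their partners were higher in 5 of 49 and lower in none (median 0.37). Agtr2, the type 2 angiotensin II receptor of fetal mesenchyme, was the most abundant of the list at E15.5 with 3.25, 41.5 and 141 FPKM (mm9, chromosome X, 21061752 to 21065957). The ratio of the later stages was 3.40, with a counting interval of 3.28 to 3.53. Gpr153, an orphan receptor, stood at 1.42, 4.32 and 14.4 FPKM, and Ramp2, a partner of the adrenomedullin receptor known in endothelium, at 1.22, 1.82 and 6.48. F2rl1, the receptor cleaved by trypsin-like proteases, stood at 0.156, 0.336 and 2.81 FPKM. Fzd2, a Wnt receptor, was level at 35.5 and 32.3 FPKM.

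Adhesion receptors had the highest median of the receptor lists, 0.62, with 29 of 34 above E13.5 and 4 past 2-fold. Cd44, the hyaluronan receptor, stood at 0.331, 2.99 and 22.7 FPKM and was 7.59 times higher at E15.5 (counting interval 6.85 to 8.43). Itgbl1, a secreted protein with integrin-like repeats, was at 0.0365 and 2.66 FPKM at the later step, a ratio on few reads at E13.5. Dag1, dystroglycan, went from 19.9 to 42.1 FPKM and Itga6, a laminin receptor chain, from 1.56 to 4.50, and both were under 2-fold on equal sums. The class A scavenger receptors Scara5, which takes up ferritin, and Scara3 were higher as well, at 2.59 and 7.92 FPKM and at 4.24 and 11.0.

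Guidance receptors had no member higher past 2-fold. Eph receptors and ephrins were below E13.5 in 11 of 17 members with none past 2-fold (median -0.25), and 2 were past it on equal sums. The netrin receptor Unc5c stood at 3.45, 9.56 and 3.97 FPKM, 2.41 times lower at E15.5 (counting interval 2.25 to 2.57). In its list 8 of 16 members were above E13.5 and 8 below, with a highest change of 0.97. The median of that list was 0.04 and flipped on equal sums. Among secreted semaphorins and slits, which are ligands of such receptors, Sema3c went from 6.42 to 20.1 FPKM and Sema6d, a membrane-bound member, from 2.04 to 7.04, and no member of 24 was lower past 2-fold.

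**Figure D3:**
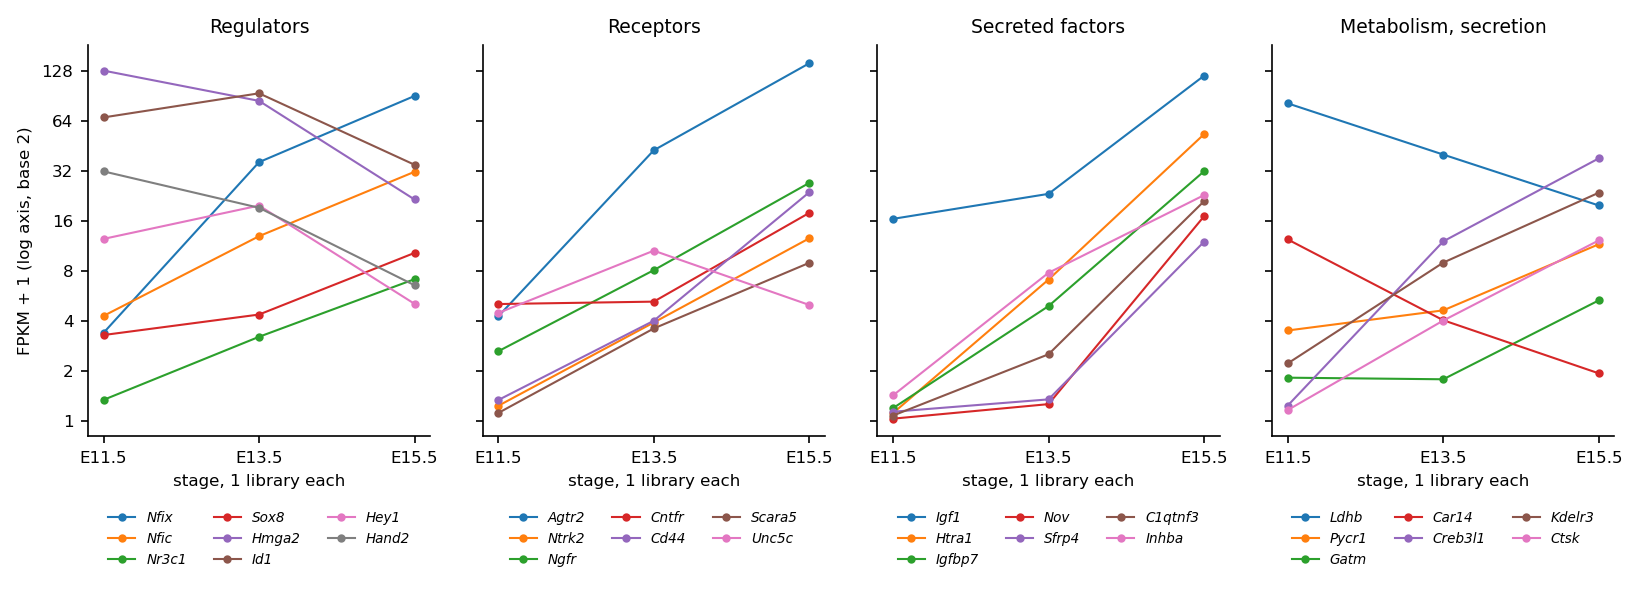
Levels of named genes at E11.5, E13.5 and E15.5 as FPKM + 1 on a log axis, 1 library per stage, in panels for regulators, receptors, secreted factors, and metabolism with secretion. Lines join the 3 libraries of a gene and no error can be drawn. Id1 and Hey1 peak at E13.5, whereas Nov and Sfrp4 stay near the bottom until E15.5.

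In the insulin-like growth factor system 6 of 12 described members were higher and none lower (median 1.01). Igf1 stood at 15.4, 22.2 and 118 FPKM (mm9, chromosome 10, 87323856 to 87378515), a ratio of 5.33 between the later stages with a counting interval of 5.12 to 5.55. Igf2 was far above it in level at every stage, with 847, 993 and 1566 FPKM, and did not pass 2-fold. Proteins that bind IGFs followed: Igfbp7 stood at 0.189, 3.90 and 30.7 FPKM, Igfbp3, under 2-fold on equal sums, at 7.94, 31.6 and 70.1, and Igfbp6 at 0.0356, 0.262 and 2.78. Igfbp5 and Igfbp4, the most abundant binding proteins at E15.5, stayed under 2-fold at 102 and 191 FPKM and at 89.9 and 135. Igf2r, which clears IGF2, stood at 35.5 and 67.6 FPKM. Htra1 and Htra3, serine proteases with an IGF-binding domain, stood at 6.07 and 52.1 FPKM and at 5.15 and 33.8. Of the 6 higher members, Igf1 is the only ligand and the others bind IGFs or cleave matrix.

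CCN proteins, matricellular factors that bind integrins and growth factors, were higher in 3 of 4 described members. Nov, or CCN3, stood at 0.0280, 0.258 and 16 FPKM, the largest change of any gene with 10 FPKM or more in either library (3.76 on the log2 scale). About 18 reads lay behind its E13.5 value and the ratio of 62.1 has a counting interval of 39.2 to 105. Wisp1, or CCN4, stood at 0.445, 5.02 and 13.4 FPKM. Ctgf, or CCN2, was lowest at E13.5 with 9.14, 6.26 and 15.01 FPKM and fell below 2-fold on equal sums. Cyr61, or CCN1, was level at 70.3 and 71.5 FPKM.

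Growth factors of other families changed singly. Inhba, the activin A subunit, stood at 0.420, 6.77 and 21.8 FPKM and was the only member of 18 TGF-beta superfamily ligands past 2-fold. The lowest change in that list was -0.99 on the log2 scale, and 1 member was lower past 2-fold on equal sums. Fgf7, a ligand for epithelial FGF receptors, went from 2.96 to 8.47 FPKM and Fgf2 from 2.98 to 8.22, whereas Fgf18 stood at 17.2 and 26.6. Angptl1 and Angptl2, angiopoietin-like proteins, went from 9.996 to 28.3 and from 10.3 to 28.8 FPKM. No Wnt ligand of 6 passed 2-fold, and Wnt5a stood at 22.1 and 19.3 FPKM. Of the 11 Wnt antagonists 2 were higher, Sfrp4 at 0.132, 0.343 and 10.9 FPKM and Dkk3, a Dickkopf relative, at 1.403, 9.85 and 27.9. Sfrp2, the most abundant Wnt antagonist apart from Igfbp4, was level by comparison at 104 and 134 FPKM.

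Among TGF-beta and BMP antagonists and latency proteins, 5 of 20 passed 2-fold and 18 were above E13.5 (median 0.54). Ltbp2, a latent TGF-beta binding protein of microfibrils that does not itself bind TGF-beta, stood at 0.0133, 0.259 and 6.93 FPKM. Ltbp4 went from 7.74 to 26.4 FPKM and Ltbp3, under 2-fold on equal sums, from 15.4 to 34.7. Fbn1, fibrillin 1, went from 20.8 to 56.0 FPKM, while Fbn2, the fetal fibrillin, started higher and stood at 61.8 and 97.9. Lrrc32, which presents latent TGF-beta at the cell surface, was at 0.816 and 3.12 FPKM.

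Peptide hormones and immune-type factors appeared among the higher genes as well. Cck, the cholecystokinin precursor, stood at 0.0873, 0.820 and 13.03 FPKM, a ratio of 15.9 with a counting interval of 9.77 to 27.6. Nppc, the C-type natriuretic peptide, went from 1.64 to 7.63 FPKM. Penk, the enkephalin precursor, went from 27.2 to 55.2, just under the 2-fold threshold on this scale and so not counted as higher. Complement and C1q-TNF genes were higher in 7 of 14 and lower in none (median 1.06). C1qtnf3, a secreted C1q-like protein of cartilage and fat, stood at 0.0730, 1.51 and 20.0 FPKM, the complement inhibitor Serping1 at 1.92, 4.70 and 15.2, and the chaperone clusterin, Clu, at 0.223, 4.04 and 14.7. Cd55, which protects cells from complement, was at 0.498 and 4.25 FPKM. The listed leukocyte markers stayed below 1 FPKM in both libraries. The mast cell protease genes Cpa3 and Cma1, on no list and chosen after their values were seen, stood at 0 and 1.34 FPKM and at 0.0232 and 1.23 at the later step, and their part in these changes was not tested.

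Enzymes and inhibitors of the pericellular space were higher too. Among 39 secreted proteases 10 passed 2-fold and none was lower. Fap, a serine protease of activated fibroblasts, stood at 0.832, 1.85 and 12.3 FPKM, and Adamts2, which removes procollagen N-propeptides, at 0.0630, 2.75 and 10.1. Prss35, a trypsin-like protein, went from 7.48 to 30.0 FPKM. Mmp14 and Mmp2, the membrane protease and the gelatinase it activates, went from 39.3 to 83.0 and from 38.4 to 81.5 FPKM, both under 2-fold on equal sums. Inhibitors were led by Itih5, a hyaluronan-linked protein, at 0.324, 3.09 and 21.2 FPKM.

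**Figure D4:**
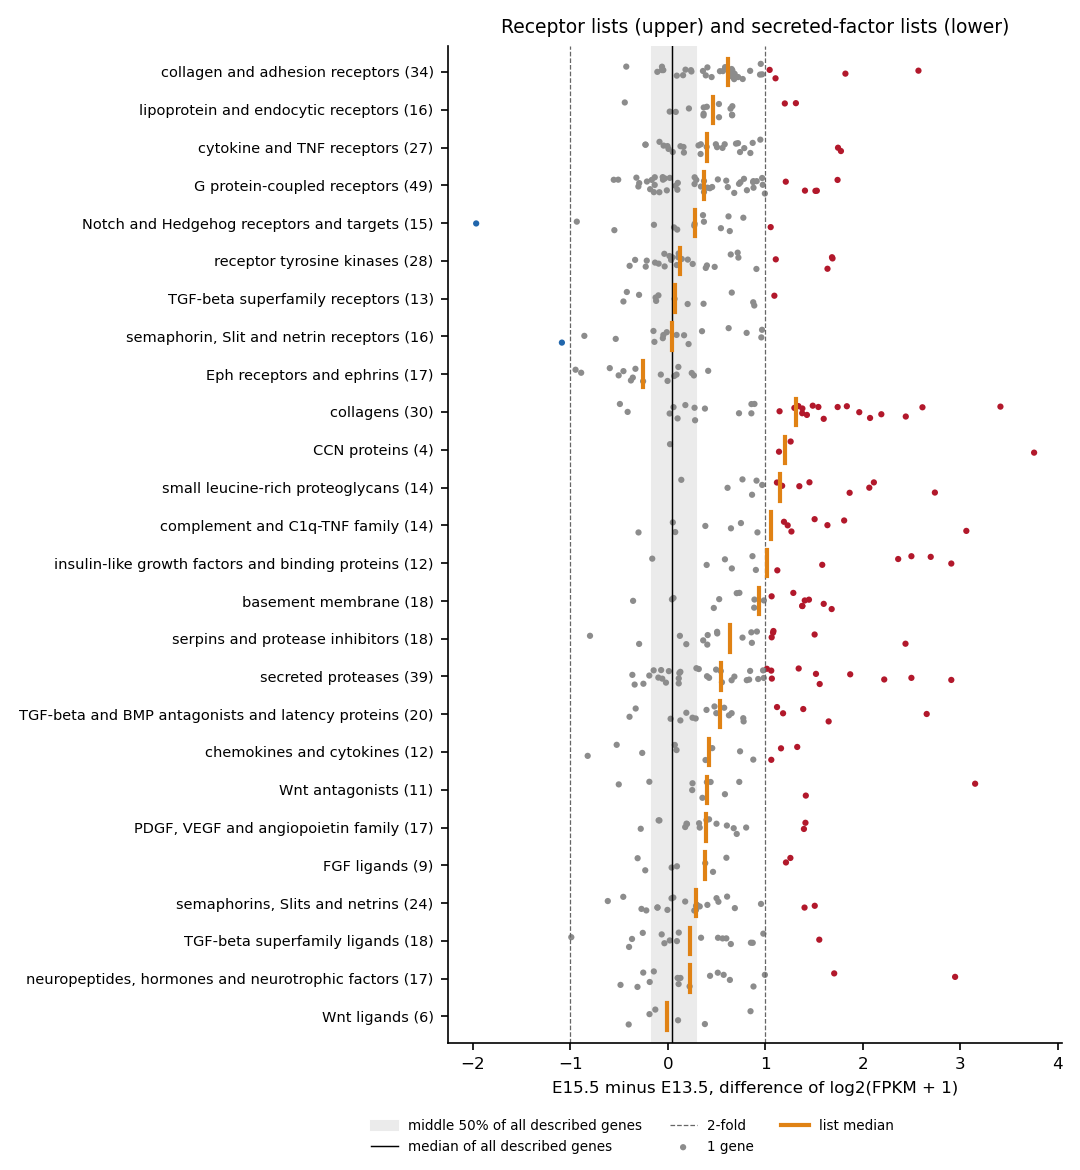
Change of each described gene on the receptor lists (upper 9) and the lists of secreted factors (lower 17), as the difference of log2(FPKM + 1) between E15.5 and E13.5. Points, bars and band are as in the plot of regulator lists. Collagens, CCN proteins, small proteoglycans, complement and the IGF system have medians of 1.01 to 1.32, while Eph receptors lie left of the median of all genes.

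Matrix genes made up the main block of the secreted class. Collagens were higher in 17 of 30 and small leucine-rich proteoglycans in 8 of 14, with no member lower past 2-fold (medians 1.32 and 1.15). Collagens together held 0.765% of all FPKM at E13.5 and 2.30% at E15.5. Beyond the fibrillar chains, Col6a6, a collagen VI chain, stood at 0.0595, 2.21 and 22.6 FPKM, Col16a1 at 0.711, 4.64 and 19.1, and Col5a3 at 0.0339 and 2.46 at the later step. Basement membrane genes were higher in 8 of 18 (median 0.94). Among those, the collagen IV chains Col4a1 and Col4a2 stood at 7.47, 8.43 and 27.6 FPKM and at 6.34, 10.4 and 28.8, the laminin chain Lama4 at 9.27 and 26.2, and nidogen, Nid1, at 12.7 and 42.8. Endothelium, muscle and pericytes also make basement membrane, and their markers moved at this step.

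Genes of loose connective tissue stood among the largest increases. In the dermal and loose connective fibroblast list 7 of 15 were higher and 1, Twist2, lower (median 0.77). Among members at 5 FPKM or more in either library the median was 0.05, and Crabp1, a retinoic acid-binding protein and abundant member, stood at 178 and 184 FPKM. Dpt, dermatopontin, stood at 0.0768, 0.4002 and 10.4 FPKM, Mfap5, a microfibril protein, at 0, 0.615 and 13.4, and the surface sialomucin Cd34 at 0.155, 1.37 and 13.9. Clec3b, tetranectin, was listed at 0 at E11.5 and E13.5 and at 3.37 FPKM at E15.5. Pi16, a marker of adventitial fibroblasts, was low in each library, at 0.160, 0.0739 and 1.25 FPKM. Fndc1, a fibronectin-domain protein, stood at 0.136, 1.53 and 32.2 FPKM and 1500015O10Rik, which encodes augurin, at 0, 1.77 and 34.7. Tnxb, tenascin X, chosen after its values were seen, stood at 0.0995 and 5.69 FPKM at the later step. Whether tenocytes or other fibroblasts carried these genes was not tested.

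The machinery that makes and exports collagen was higher with it. All 30 described genes of collagen modification and crosslinking were above E13.5 and 11 were past 2-fold (median 0.92). The lysyl oxidase gene Lox stood at 0.669, 12.1 and 54.6 FPKM, Pcolce, an enhancer of C-propeptide removal, at 29.1, 29.5 and 100, and Crtap and Lepre1, partners in prolyl 3-hydroxylation, at 21.3 and 56.2 and at 15.1 and 39.1 at the later step. Of 60 genes of ER translocation, folding and COPII transport, 53 were above E13.5 but only 4 past 2-fold (median 0.30, or 0.11 on equal sums). These included Creb3l1, a membrane-bound transcription factor of secretory cells known as OASIS, at 0.233, 11.0 and 37.0 FPKM (mm9, chromosome 2, 91822485 to 91864327), 3.36 times higher at E15.5 (counting interval 3.10 to 3.64). The cargo and retrieval genes Kdelr3, Tmed3 and Kdelr2 were the others, at 7.95 and 22.6, at 7.59 and 19.7, and at 55.1 and 114 FPKM, the last under 2-fold on equal sums.

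Genes of the stress response of the endoplasmic reticulum differed less. No gene of 22 of the unfolded protein and integrated stress response passed 2-fold (median 0.26), and the chaperone gene Hspa5 stood at 222 and 248 FPKM. Xbp1, which is spliced under such stress, was at 13.54 and 16.8 FPKM, and Atf4 at 54.7 and 66.7. Lysosomal genes were above E13.5 in 38 of 40, with 3 past 2-fold (median 0.51, or 0.33 with 1 past 2-fold on equal sums). Ctsk, the collagen-degrading cathepsin K, stood at 0.159, 3.01 and 11.2 FPKM. Grn, progranulin, at 16.8 and 35.5, and Ctsh, at 1.11 and 3.33, were under 2-fold on equal sums.

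**Figure D5:**
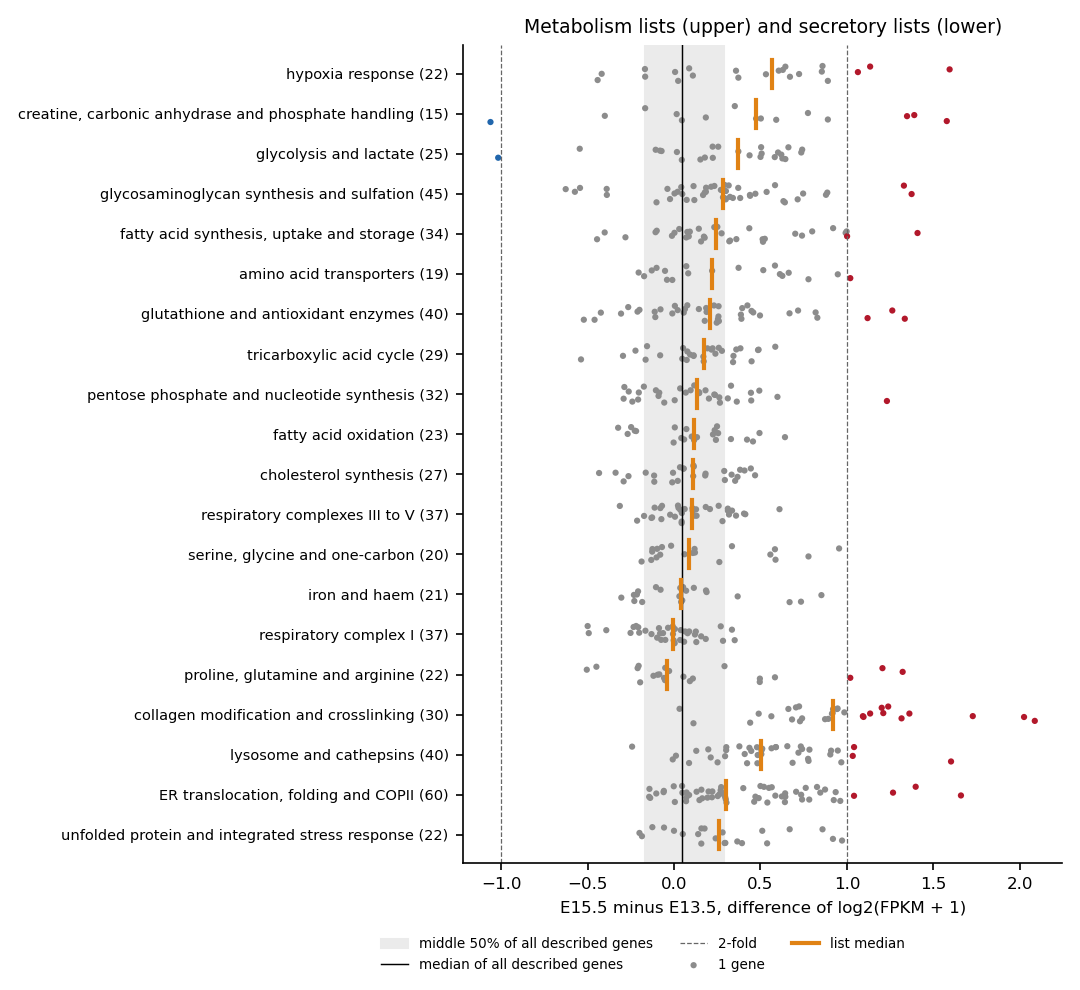
Change of each described gene on 16 metabolism lists (upper) and 4 lists of the secretory and lysosomal machinery (lower), as the difference of log2(FPKM + 1) between E15.5 and E13.5, drawn as in the plot of regulator lists. Respiratory, tricarboxylic acid cycle and cholesterol genes lie inside or near the grey band, and collagen modification genes lie to its right.

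Central metabolism was close to level between the stages. None of 37 complex I genes passed 2-fold (median -0.01), and the same held for 37 genes of respiratory complexes III to V (0.11), 29 of the tricarboxylic acid cycle (0.17), 27 of cholesterol synthesis (0.11) and 23 of fatty acid oxidation (0.12). Complex I genes lay between -0.50 and 0.35. The medians of the 4 lists other than complex I flipped on equal sums. Atp5b, a subunit of ATP synthase, stood at 372 and 445 FPKM, and Ndufa4, a respiratory chain subunit, at 47.1 and 46.9.

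Glycolysis was above E13.5 in 20 of 25 genes with none higher past 2-fold (median 0.37, or 0.14 on equal sums). Ldha, which favours lactate production, stood at 98.3, 88.9 and 141 FPKM. Ldhb, which favours the reverse reaction, stood at 80.4, 39.0 and 18.8 FPKM (mm9, chromosome 6, 142438769 to 142456463), lower at each stage and 2.08 times lower at the later step (counting interval 1.91 to 2.26). The pair thus stood in opposite directions, on equal sums as well. Hypoxia response genes had a median of 0.57 with 3 of 22 past 2-fold. P4ha2, a collagen prolyl hydroxylase on that list, went from 6.25 to 14.9 FPKM, and Egln3, an oxygen sensor, from 1.34 to 3.90, both under 2-fold on equal sums, while Ndrg1 kept above it. Vegfa, at 12.97 and 20.3 FPKM, did not pass. Ndufa4l2, a hypoxia-linked relative of Ndufa4 that also marks pericytes, stood at 0, 0.324 and 7.33 FPKM and was chosen after its values were seen.

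Amino acid metabolism differed in single genes. Pycr1, the mitochondrial enzyme that makes proline, stood at 2.49, 3.61 and 10.5 FPKM, a ratio of 2.92 with a counting interval of 2.57 to 3.31. Ass1, of arginine synthesis, was at 0.194 and 1.75 FPKM, and Slc7a5, a carrier of large neutral amino acids, at 2.49 and 6.08, the latter under 2-fold on equal sums. The other 19 genes of proline, glutamine and arginine metabolism did not pass, and the list median was -0.04. Genes of serine, glycine and one-carbon metabolism had none of 20 past 2-fold, although Aldh1l2, a mitochondrial folate enzyme, went from 0.850 to 2.59 FPKM, just under the threshold. Of 45 glycosaminoglycan genes 2 passed, a share near that of all described genes. They were the chondroitin-polymerising factor Chpf at 6.63 and 18.8 FPKM and the chondroitin sulfotransferase Chst12 at 2.12 and 6.85.

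Creatine, carbonate and phosphate handling gave 3 higher and 1 lower gene of 15. Gatm, the first enzyme of creatine synthesis, was flat before and then higher at 0.815, 0.775 and 4.30 FPKM. Car14, a membrane carbonic anhydrase, stood at 11.3, 3.02 and 0.928. Nt5e, which makes adenosine outside the cell and is known as CD73, stood at 0.193, 0.621 and 3.25 FPKM, and Enpp1, which makes the mineralisation inhibitor pyrophosphate, at 0.683, 2.83 and 8.75. Both act on extracellular phosphate compounds. Of 6 described hypertrophic cartilage and bone markers, 1 was higher past 2-fold, the bone matrix gene Ibsp at 0.146 and 2.04 FPKM. The highest member of that list was Runx2 at E13.5, with 13.4 FPKM, and Pth1r at E15.5, with 7.18 FPKM. Runx2 was thus below its E13.5 level at E15.5, and the lowest change of the list was -0.92 on the log2 scale. The list was level in its sum only, at 30.4 and 30.3 FPKM, and 1 member passed 2-fold lower on equal sums. Metallothioneins, which bind zinc and copper, were higher from low levels, Mt1 at 0.322 and 2.34 FPKM and Mt2 at 0.667 and 3.001. Hprt, of purine salvage, stood at 5.15, 3.44 and 9.43 FPKM and was the only gene of 32 in nucleotide synthesis past 2-fold.

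Imprinted growth genes moved in both directions, with 6 of 27 higher and 1 lower (median 0.72). Magel2 went from 3.43 to 11.4 FPKM and its neighbour Ndn, necdin, from 17.6 to 40.1, the latter under 2-fold on equal sums, as was Peg3 at 130 and 276. Nnat, neuronatin, was the lower one, at 567, 261 and 87.6 FPKM, 2.98 times lower at E15.5 (counting interval 2.87 to 3.09). Cell cycle genes were level as a list (median 0.05, which flipped on equal sums), with the cyclins Ccnd3 at 34.6 and 77.4 FPKM and Ccne1 at 5.49 and 12.4 past 2-fold, both under it on equal sums. Channels and pumps gave 7 higher of 32, led by the water channel Aqp1 at 0.0574, 2.48 and 17.1 FPKM, which endothelium and connective tissue express. Fam38a, the mechanically gated channel now called Piezo1, went from 4.87 to 11.2 FPKM, under 2-fold on equal sums.

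Genes of the cell surface membrane formed a group seen after the values were known. Caveolae are flask-shaped pits that buffer membrane tension, built by caveolins and cavins. Of 7 coat genes 5 were described and all 5 were past 2-fold (median 1.90). Ptrf, or cavin 1, stood at 0.130, 6.61 and 27.4 FPKM, Prkcdbp, or cavin 3, at 0.462, 2.90 and 13.9, and Ehd2, an ATPase of the caveolar neck, at 0.474, 4.38 and 17.7. Cav1 was at 0.176, 0.414 and 4.48 FPKM, a ratio of 10.8 between the later stages with a counting interval of 7.50 to 16.1. Sdpr, or cavin 2, was at 0.905 and 3.15 FPKM, under 2-fold on equal sums, while Cav2 was under 0.1 FPKM and the muscle gene Cav3 at 0.378 at E15.5. Endothelium is rich in caveolae, and its 13 markers went from 3.29 to 10.2 FPKM in sum, while those of smooth muscle and pericytes went from 44.01 to 73.9. The part of these cells in the caveola genes was not tested.

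Calcium-dependent membrane proteins were seen in the same way. Of 12 annexins 9 were described, all above E13.5 and 5 past 2-fold (median 1.06). Anxa1 stood at 0, 3.72 and 14.8 FPKM, Anxa2 at 1.41, 22.5 and 57.1, and Anxa5 at 7.24, 19.8 and 53.8. The S100 protein S100a10, which binds annexin A2, stood at 2.35, 20.6 and 71.6 FPKM, and S100a6 at 0.563, 3.33 and 21.3. All 8 described S100 genes of 17 were above E13.5 and 4 were past 2-fold. Postn, periostin, and Thbs2, thrombospondin 2, were likewise chosen after their values were seen, at 0.737, 73.9 and 417 FPKM and at 0.275, 7.46 and 53.3.

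The precision of a level was limited by depth and by the lack of replicates. The coverage corresponded to about 12000000 reads on the listed transcripts at E13.5 and 16400000 at E15.5. A transcript of 2000 bases then had a counting error of 12.9% and 11.9% at 1 FPKM, and of 4.07% and 3.77% at 10 FPKM. Close to the 2-fold threshold on the higher side, 30 genes lay within 0.05 above it and 71 within 0.05 below, and on the lower side 16 lay within and 20 outside. Those genes would change sides with small shifts in scale.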

How the data were processed

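Sorting on a BD FACSAria II, extraction with an RNeasy micro kit and cDNA from NuGEN's Ovation RNA-Seq v2 assay are named in the labels' protocols. The deposited values are FPKM for each transcript, with a status per estimate, per the file headers. The deposited coverage column is a signal of mean read depth and was used only to estimate depth. The submitters' processing notes name Bowtie 0.12.7, TopHat 1.4.1 and mm9, without roles or order. For strand, annotation and filters nothing is given in the sources used here, so overlapping genes and near-identical copies may share reads. Amplification of small amounts of RNA adds error that counting intervals do not cover.

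FPKM values were summed per gene symbol (28107 transcripts, 22072 symbols), and 216 symbols with a status other than OK were left out. Changes are differences of log2(FPKM + 1), called at 2-fold, with no test since each stage has 1 library. Libraries were grouped by the age in the labels. The FPKM values of a library reflect shares of its RNA, so a rise of some genes lowers others. Reads were estimated from covered bases of low transcripts, with 43.7 and 44.8 bases per read at E13.5 and E15.5, and the 95% intervals of ratios are exact binomial ones on those estimates. Alternatives were another pseudocount, size factors, equal sums, other filters, any status and the highest transcript, and, added after seeing the data, a limit on transcript length. The steps were tested on simulated 4-fold changes with counting error only, in genes at 5 FPKM or more at E13.5. That setting does not cover 2-fold calls, lower levels or error between libraries.

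The 79 lists, with 2157 entries, and the genes described were chosen with earlier results of these data known. Named were list members past 2-fold, the 3 highest of each list, the largest change in each direction where none passed, and the 15 largest increases and decreases among genes with 10 FPKM or more. All other named genes were chosen after their values were seen. Entries Ciart, C5, C1qtnf12, Tfeb and Snorc were not analysed here. Python 3.11.15, pandas 2.3.3, NumPy 2.4.6, SciPy 1.17.1 and Matplotlib 3.10.9 were used.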

Additional observations from a re-analysis of the deposited data

How the results depend on the processing

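Counts of genes depended on the scale and filters, and so did the signs of small list medians. Counts of members above or below E13.5 are given on the deposited scale only. A pseudocount of 0.1 gave 777 higher and 225 lower genes. Equal sums gave 158 lower genes and a median of all genes of -0.13, and turned the sign of 16 of 78 list medians. A floor of 5 FPKM left 51 lower genes, and a limit to transcripts of 300 bases or more, added after seeing the data, left 54. Of 277 named genes past 2-fold, 52 fell under it on equal sums, 15 with size factors and 8 with the highest transcript, and none with a pseudocount of 0.1. Under the other alternatives the counts of higher and lower genes stayed within 1.5 times. No paired analysis was possible because each stage has 1 library.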
